A study of Mus musculus with 4 samples.

Results

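Epidermal keratinocyte genes were followed in RNA of mouse dermis from which the epidermis had been removed. The 35 genes were chosen by name as markers of the layers and junctions of epidermis, and 34 had a probe set that names the gene alone, among 18193 genes on the array. Dsg3, a desmosomal cadherin, was not analysed here. A probe set is the group of short probes that reports a transcript, and where several name one gene, the brightest on average stands for it.

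The samples were 4 Affymetrix mouse whole-genome arrays of total RNA from dorsal dermis of E15.5 embryos, with 2 arrays labelled control and 2 labelled mutant. Mutant embryos were KRT14-Cre Ctnnb1(Ex3)fl/+, in which a keratin 14 promoter drives Cre in surface epithelium and Cre converts 1 Ctnnb1 allele to a form that makes stabilised beta-catenin. The controls were littermates, whose own alleles, strain and sex the labels do not give. Dispase, a protease used to part epidermis from the tissue beneath it, was applied to dissected skin, and RNA was isolated from the dermal part. The surface epithelium in which Cre acts was thus to be taken away. Whether recombined epithelial cells stayed in the dermal part was not tested. The study asked how dermis differs beneath an epithelium with active beta-catenin. Most of the genes followed here mark keratinocytes, whose RNA in a dermal preparation can come from follicle buds or from epidermis that stayed attached, and the source was not tested.

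Epidermis is built from a basal layer that divides and rests on a basement membrane, suprabasal layers that switch keratins and strengthen their junctions, and an outermost layer that is crosslinked into a cornified envelope. At this stage the mouse epidermis is stratifying, and a flat temporary cover, the periderm, still lies on its surface. Basal keratinocytes make the keratin pair Krt5 and Krt14, suprabasal cells replace it with Krt1 and Krt10, and desmosomes join cells of all living layers. Keratinocytes are not dermal cells, but hair follicle buds that grow down into dermis carry basal-type keratins.

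Several facts of the arrays touch every result below. The authors' deposited table of changed genes does not follow the array labels. Krtap8-1, a hair shaft protein listed at 1220 times control in the authors' deposited table, gave 1237 and 1369 on the arrays labelled control 1 and mutant 2 but 8.01 and 3.21 on control 2 and mutant 1. Each labelled group thus held 1 high and 1 low array, with a log2 difference of -0.09 by label. The summed signal over 12 hair shaft and follicle genes was 4333 in control 1, 366 in control 2, 351 in mutant 1 and 4738 in mutant 2, so every direction given here is that of the array labels alone. The scanner records give the same grouping in time, since control 2 and mutant 1 were scanned first and second and control 1 and mutant 2 after them, so order and pair cannot be told apart. The same records give mouse epidermis as the type of every sample, where the labels say dermis. The array labelled mutant 1 carried male signals (Eif2s3y 524, at 1.81 or below elsewhere) and the other arrays female ones. Actb gave ratios of 3' to 5' signal, a measure of RNA integrity, of 1.16 to 1.22. Dermal markers were abundant on every array, with a summed signal over 15 genes of 46165 to 66733 and Col1a1, a fibrillar collagen chain, at 4101 to 5641.

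Basal-layer genes were highest on the array labelled mutant 1 for 4 of 7 and lowest on control 2 for 5 of 7. In bulk RNA, more cells of a type and more RNA per cell cannot be told apart. Krt5, the basal type II keratin, gave signals of 164 in control 1, 110.1 in control 2, 311 in mutant 1 and 195 in mutant 2. Krt14, its type I partner, gave 112 and 79.7 in the controls against 247 and 139.6 in the mutants. For both keratins the mutant arrays lay above the controls without overlap by these probe sets. Mutant 2 was close to control 1 and mutant 1 well above it. The other bright probe set of Krt14 gave 92.1 and 58.2 on the controls and 196 and 86 on the mutants, with overlap. The log2 difference of mutant minus control, taken on log2(signal + 16), was 0.80 ± 0.29 for Krt5 and 0.87 ± 0.31 for Krt14 (SE, n = 2 per group). Neither passed in limma, with an adjusted p of 0.9999 for each. Trp63, the transcription factor p63 that specifies stratified epithelium, gave 75.9 and 66.0 on the controls and 121 and 84.2 on the mutants. By this probe set the order of arrays was the same (0.43 ± 0.22, limma adjusted p = 0.9999). The other probe sets of Trp63 were dimmer and overlapped, for example with mutant 2 at 18.6 under control 1 at 19.4.

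Krt15, a keratin of basal cells, had another profile. It gave 58.2 in control 1, 59.1 in control 2, 327 in mutant 1 and 39.1 in mutant 2, so its excess lay on mutant 1 alone and mutant 2 was the lowest array. Lamb3, the beta 3 chain of the laminin that anchors basal cells, gave 18.9, 0.749, 22.0 and 24.3 in the same order of arrays. It thus stood out by its low value on control 2, and it was too dim to be tested. The anchoring integrin subunits were flatter. Itga6 gave 1117 and 1155 on the controls and 928 and 1167 on the mutants. Itgb4 stayed between 11.4 and 23.8 and was too dim to be tested. Itga6 is also made by endothelial and nerve cells, and it was the only basal gene with a lower mean on the mutant arrays (-0.12 ± 0.15, SE, limma adjusted p = 0.9999).

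Krt8 and Krt18, the keratin pair of simple epithelia and of periderm, were dim. Krt8 gave 20.1 and 25.1 on the controls and 48.3 and 34.2 on the mutants, without overlap (0.56 ± 0.23, SE, limma adjusted p = 0.9999). A further probe set of Krt8 did overlap, with mutant 2 at 20.9 under control 2 at 22.8, and another did not. Krt18 gave 20, 9.97, 18 and 30.4 on control 1, control 2, mutant 1 and mutant 2. Its groups overlapped, and it was too dim to be tested.

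Several markers of the first differentiated layers ranged widely. Krt1, the suprabasal type II keratin, gave 17.3 in control 1, 90.8 in control 2, 325 in mutant 1 and 25.1 in mutant 2. Krt10, its type I partner, gave 158, 384, 1323 and 160.3 in that order. Both keratins thus separated mutant 1, and after it control 2, from the low pair of control 1 and mutant 2, an order that basal Krt5 and Krt14 did not share. Krtdap, a secreted protein of differentiating keratinocytes, gave 64.4, 60.5, 763 and 57.2. It was 12.6 times the mean of the other arrays on mutant 1, while those other arrays lay close together.

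Lor, which encodes the envelope protein loricrin, followed Krtdap, with 55.3 in control 1, 76.0 in control 2, 619 in mutant 1 and 46.1 in mutant 2. Of its other probe sets, 1 reached 503 on mutant 1 against at most 40.8 on the others, while a dim one differed by -0.27, with its lowest signal on mutant 1, and the mean of all of them differed by 0.84. The mutant 1 signal was 10.5 times the mean of the other arrays for Lor, 7.33 times for Krt1, 6.27 times for Krt15 and 5.65 times for Krt10. The same ratio was 1.99 for Krt5, 2.23 for Krt14 and 1.61 for Trp63. These ratios, each within 1 probe set, were unequal, also within the suprabasal list. Among other suprabasal genes the ratio was 3.76 for Calm4 and 3.05 for Sbsn, but 1.39 for Lgals3, 1.06 for Sfn and 0.727 for Grhl1, below that of Krt5. The log2 differences were 1.61 ± 1.10 for Krtdap, 1.29 ± 1.09 for Lor, 0.99 ± 1.13 for Krt1 and 0.88 ± 1.02 for Krt10 (SE, n = 2 per group), none past the threshold in limma (adjusted p = 0.9999 for each). Without the array mutant 1 they turned to -0.10, -0.38, -0.54 and -0.58.

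Sequence upstream of the start is shown for 4 of these differentiation genes, chosen because they were highest on mutant 1, and for Dsp and Sfn, whose signals were marked by a low value on control 2. Each run is the 120 bases before the RefSeq start in GRCm38.p6, 5′ to 3′ on the gene's strand. Capitals mark TGANTCA, in which N is any base, a relaxed form of the letters bound by AP-1 factors, and TATAAA, the TATA box. Both were searched on either strand. The match in Sbsn is TGAATCA, with A at the open position.
Krtdap, chr7:30787785-30787904, plus strand: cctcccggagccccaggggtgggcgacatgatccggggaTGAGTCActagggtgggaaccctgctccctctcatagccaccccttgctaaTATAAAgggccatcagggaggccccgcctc
Lor, chr3:92083143-92083262, minus strand: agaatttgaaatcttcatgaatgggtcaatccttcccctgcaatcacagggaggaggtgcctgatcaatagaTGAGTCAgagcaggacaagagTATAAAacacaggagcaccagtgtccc
Sbsn, chr7:30751351-30751470, plus strand: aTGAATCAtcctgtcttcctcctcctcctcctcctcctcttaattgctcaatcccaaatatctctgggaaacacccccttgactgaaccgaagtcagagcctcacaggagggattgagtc
Krt10, chr11:99389365-99389484, minus strand: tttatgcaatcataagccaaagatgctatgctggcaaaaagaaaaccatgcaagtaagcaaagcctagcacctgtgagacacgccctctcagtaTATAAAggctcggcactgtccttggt
Dsp, chr13:38151174-38151293, plus strand: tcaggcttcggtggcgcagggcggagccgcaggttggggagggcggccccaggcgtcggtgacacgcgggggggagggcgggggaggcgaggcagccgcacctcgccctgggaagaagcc
Sfn, chr4:133602169-133602288, minus strand: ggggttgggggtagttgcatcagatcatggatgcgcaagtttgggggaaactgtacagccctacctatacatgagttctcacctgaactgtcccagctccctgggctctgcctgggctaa

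The RefSeq table held an upstream window for 22 of the members. Within 250 bases before the start, TGANTCA occurred in 5 of them, Krtdap, Lor, Sbsn, Ivl and Cldn4, and in 6.75% of all 32851 windows of that length. TATAAA occurred in 4, Krtdap, Lor, Ivl and Krt10, with its first base at -30, -27, -29 and -26 from the start, and in 12.4% of all windows. AACCGGTT, the letters bound by grainyhead-like factors, was in none of the 22 windows and in 0.116% of all. These are matches of letters only and say nothing about binding.

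Sbsn and Krtdap lie on either side of Dmkn on chromosome 7, and all 3 encode secreted proteins of differentiating epidermis. Sbsn, suprabasin, gave 138 and 119 on the controls and 443 and 179 on the mutants, without overlap (1.06 ± 0.42, SE, limma adjusted p = 0.9999). A dim probe set of Sbsn did overlap, with mutant 2 the lowest array at 4.53, and another did not. Calm4, a calmodulin-like calcium-binding protein of skin, gave 35.1 and 25.0 on the controls and 156 and 64.4 on the mutants, also without overlap (1.36 ± 0.40, SE, limma adjusted p = 0.9999). Anxa8, an annexin, gave at most 31.2 on the controls, against 54.8 and 39.4 on mutant 1 and mutant 2. Its groups did not overlap, and mutant 1 was the highest array, as for Sbsn and Calm4. By its other probe set mutant 2 was the highest, at 56.5 against 49.4 on mutant 1.

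Lgals3, which encodes the lectin galectin-3 and is made by macrophages as well as keratinocytes, separated the labelled groups most evenly. It gave 68.3 in control 1, 54.4 in control 2, 158 in mutant 1 and 216 in mutant 2. Each mutant array was well over each control, and mutant 2 rather than mutant 1 was the highest. Its log2 difference of 1.38 ± 0.22 (SE, n = 2 per group) had an unadjusted limma p of 0.00166 and an adjusted p of 0.9999. It stayed between 1.17 and 1.59 when any 1 array was left out, and Lgals3 was the member that changed least in proportion among those with a difference above 1.

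Another set of members was marked by a low value on control 2. Sfn, which encodes 14-3-3 sigma, an epithelial adaptor protein that links p53 and cell cycle exit, gave 72.1 in control 1, 3.53 in control 2, 62.7 in mutant 1 and 102 in mutant 2. Grhl1, a grainyhead-like transcription factor of epithelial junction genes, gave 42.9, 15.2, 28.9 and 61.1. Ovol1, a zinc-finger regulator of keratinocyte differentiation, gave 27.8, 3.19, 23.3 and 29.1 and was too dim to be tested. Its other probe set, dimmer still, differed by -0.11. In these 3 genes control 1 and mutant 2 were the higher arrays, the reverse of Krt1 and Krt10. Grhl3, a relative of Grhl1 needed for barrier formation, stayed between 13.3 and 26.6 and was not tested either.

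Fabp5, the epidermal fatty acid-binding protein, and Klf4, a transcription factor of barrier formation, were bright and differed little by label. The highest array was 1.31 times the lowest for Fabp5 and 1.8 times for Klf4. Fabp5 gave 6206 and 4730.2 on the controls and 5724 and 5348 on the mutants (0.03 ± 0.17, SE, limma adjusted p = 0.9999). Klf4 gave 1729 and 960.2 against 1188 and 1463 (0.03 ± 0.30, SE, limma adjusted p = 0.9999). Both genes are also expressed outside epidermis, and neither followed the keratins across the arrays.

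The other cornified genes were at the bottom of the signal range. Ivl, involucrin, the early scaffold of the envelope, gave 0.429 and 1.25 on the controls and 6.20 and 5.29 on the mutants, and its other probe set differed by -0.02. Tgm1, the transglutaminase that crosslinks the envelope, gave 19.1, 7.67, 23.5 and 17.6 on control 1, control 2, mutant 1 and mutant 2. Neither was bright enough to be tested, so Lor was the only cornified member tested.

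Of the junction genes, 7 of 9 were above both controls on both mutant arrays by the chosen probe sets, against 11.2% of all genes. Dsp, desmoplakin, which ties keratin filaments to desmosomes, gave 424 in control 1, 114 in control 2, 551 in mutant 1 and 538 in mutant 2. Only control 2 was low. A dimmer probe set of Dsp overlapped, with mutant 2 at 31.5 under control 1 at 32.8, and another did not. Perp, a tetraspan desmosomal protein and p63 target, gave 269 and 109.9 on the controls and 589.9 and 289 on the mutants. Mutant 2 lay just above control 1, and mutant 1 far above both. The log2 differences were 1.23 ± 0.57 for Dsp and 1.18 ± 0.51 for Perp (SE, n = 2 per group, limma adjusted p = 0.9999 for each).

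Dsc3, a desmosomal cadherin of basal and lower suprabasal cells, gave 22.1 and 14 on the controls and 86.2 and 37.8 on the mutants (1.13 ± 0.37, SE, limma adjusted p = 0.9999). A second probe set of Dsc3 differed by 0.14. Dsc2, a cadherin of the same family, gave 19.4 and 12.2 against 38.8 and 23.7 and was not tested. Cdh1, E-cadherin, the adherens junction cadherin of all epithelia, gave 61.0 and 34.3 against 121 and 69.0 (0.79 ± 0.34, SE, limma adjusted p = 0.9999). By the chosen probe sets all 3 cadherins were highest on mutant 1 and lowest on control 2, with no overlap of the labelled groups. The second probe sets of Dsc3 and Dsc2 overlapped, with mutant 2 at 9.6 and 16.5, below control 1 at 15.2 and 19.8.

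Pkp1, plakophilin-1 of suprabasal desmosomes, gave 69.1 and 86.1 on the controls and 169 and 92.0 on the mutants. Jup, plakoglobin, a relative of beta-catenin present in both kinds of junction, gave 84.6 and 99.9 against 113 and 101, so that control 2 and mutant 2 were nearly equal. Epcam, an epithelial adhesion molecule, went the other way by this probe set, at 49.4 and 80.5 against 62.7 and 50.7 (-0.13 ± 0.26, SE, limma adjusted p = 0.9999), while its other probe set differed by 0.40. Cldn4, a tight junction claudin, gave 45.6, 10.8, 27.6 and 45.2 on control 1, control 2, mutant 1 and mutant 2, the profile of Sfn and Grhl1. The chosen probe sets of Epcam and Krt14 have an _x_at suffix and those of Anxa8 and Jup an _s_at suffix, by which Affymetrix marks probes that can bind related transcripts. Of the 22 further probe sets of 15 members, 18 had the sign of the chosen one.

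**Figure D1:**
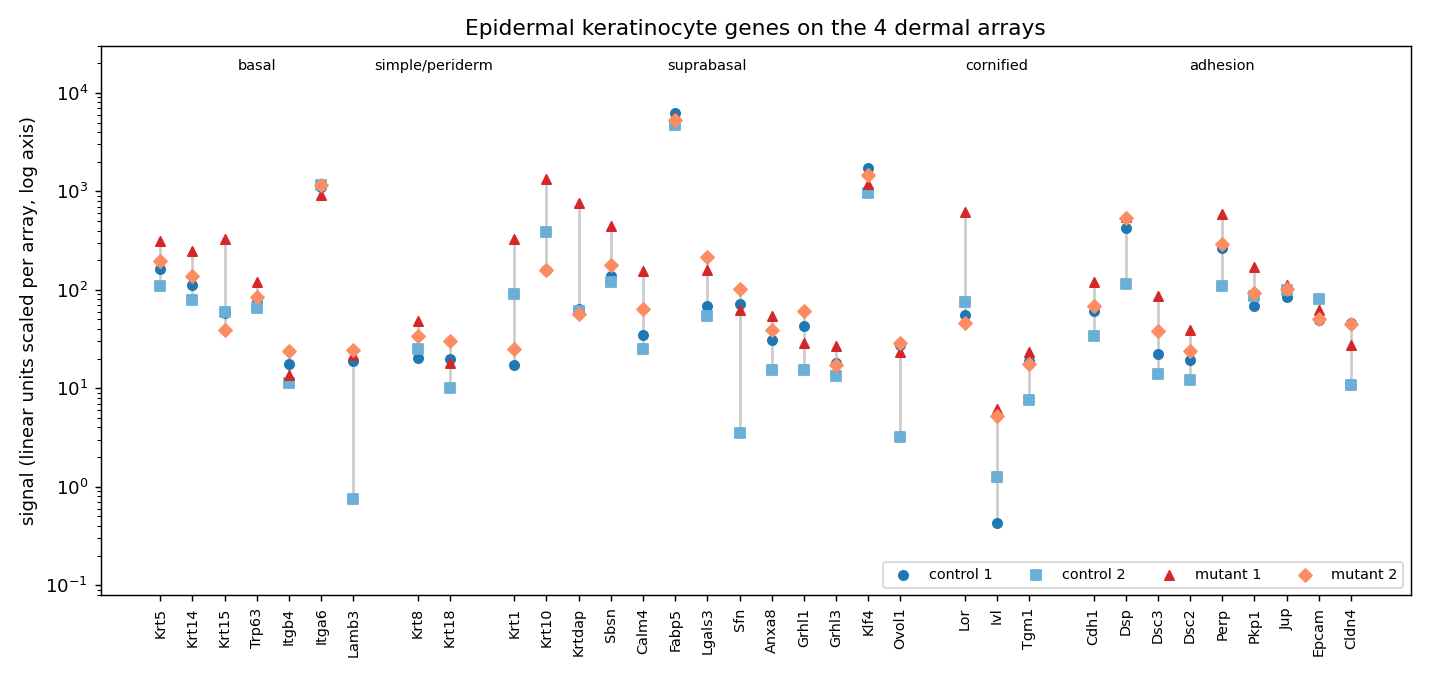
Signal of each of the 34 genes on the 4 arrays, on a log axis in linear units scaled per array, with genes grouped by layer or role and a grey line from lowest to highest array. Mutant 1 (triangles) stands far above the rest for Krt15, Krt1, Krt10, Krtdap and Lor, and control 2 (squares) far below for Lamb3, Sfn and Ovol1. Those control 2 signals, 0.749, 3.53 and 3.19, are at the bottom of the signal range, which a log axis stretches.

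By label, 0 of the 26 members bright enough to be tested passed in limma, as did 0% of all 22519 probe sets. At an unadjusted p under 0.05 there were 5 of the 26, Krt5, Krt14, Calm4, Lgals3 and Dsc3, and 208 of all probe sets. The mean was higher on the mutant arrays for 32 of 34 members, against 49.3% of all genes, with Itga6 and Epcam as the exceptions. By the chosen probe sets, both mutant arrays lay above both controls for 17 of 34 members, against 11.2% of all genes, and below for 0, against 12.5%. These members come from one kind of cell and are not independent of each other, so the count has no test. It includes Lamb3, Ivl and Dsc2, which were too dim to be tested, and Jup, with control 2 and mutant 2 nearly equal. It also includes Krt14, Trp63, Krt8, Sbsn, Dsp and Dsc3, each with a further probe set that overlapped. The median log2 difference was 0.65, and 0.00 over all genes. By layer it was 0.70 for 7 basal genes, 0.47 for the keratins of periderm, 0.88 for 13 suprabasal genes, 0.37 for 3 cornified genes and 0.60 for 9 junction genes. Without control 2 the median was 0.40 over all members, 0.35 for basal and 0.41 for suprabasal genes, and without mutant 1 it was 0.39, 0.40 and 0.44. The cornified median was 0.62 without control 1 and 0.22 without mutant 1, and the junction median 0.95 without control 1 and 0.99 without mutant 2. With control 1 left out, 27 members had both mutant arrays above control 2. Leaving out an array can only keep or raise this count, so the rise is no result.

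The array labelled mutant 1 was the highest for 22 of 34 members, against 22.2% of all genes, and control 2 the lowest for 23 of 34, against 27.4% of all genes. Mutant 2 was highest for 8, control 1 for 3 and control 2 for 1. The median difference by label was 0.89 without control 1 and 0.83 without mutant 2, larger than without either of the arrays that were most often extreme.

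Set side by side in the pairs of control 1 with mutant 2 and control 2 with mutant 1, which the labels do not give, the members differed in size and not often in direction. Mutant 1 exceeded control 2 by a median of 1.10 on the log2 scale, with 32 of 34 members higher. Mutant 2 exceeded control 1 by a median of 0.21, with 26 of 34 higher. The mutant array was the higher in both pairs for 24 of 34 members, against 23.2% of all genes, and the median over all genes was 0.00 in each pair. Each pair is 1 array against 1 and carries no test.

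Layer medians in both pairs, mutant 1 minus control 2 first, were close to those over all members for basal, suprabasal and junction genes. They were 1.18 and 0.21, 1.30 and 0.23, and 0.96 and 0.17 in that order. The 3 cornified genes departed from this at 0.74 and -0.06, and the 2 keratins of periderm at 0.52 and 0.42. Single genes ranged more widely. Lor and Krtdap differed by 2.79 and 3.35 between mutant 1 and control 2 but by -0.20 and -0.13 between mutant 2 and control 1, and Krt15 by 2.19 and -0.43. Krt5 differed by 1.38 and 0.23, Krt14 by 1.46 and 0.28, Dsp by 2.12 and 0.33 and Perp by 2.27 and 0.09. Lgals3 differed by 1.30 and 1.46, the only member with a difference above 1 in each pair. Calm4, at 2.07 and 0.65, and Dsc3, at 1.77 and 0.50, came next by the smaller of their differences.

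**Figure D2:**
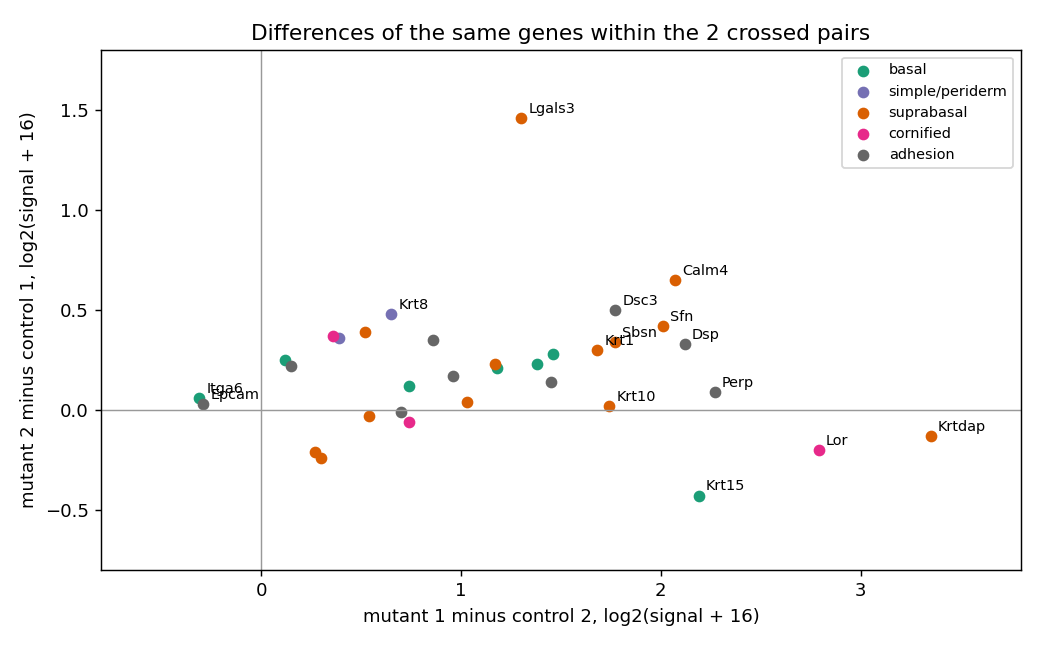
Log2 difference of mutant 1 minus control 2 (horizontal) against mutant 2 minus control 1 (vertical) for the 34 genes, coloured by layer, with both axes on the same scale. Most points spread along the horizontal axis between 0 and 3.35 and stay within 0.5 of zero vertically, and Lgals3 lies apart at 1.30 and 1.46.

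Members showed the grouping of the hair shaft genes at shares not far from those of all genes. Control 1 and mutant 2 both lay above the other arrays for 7 of 34 members (20.6%), against 27.1% of all genes. Both lay below for 5 (14.7%), against 21.5%. The 7 were Itgb4, Krt18, Sfn, Grhl1, Klf4, Ovol1 and Cldn4, and the 5 were Krt15, Krt1, Krt10, Lor and Epcam. Of the 12 hair shaft and follicle genes, 11 lay above on that pair, all but Lef1. None of the 56 probe sets of the members is in the authors' deposited table of 153 probe sets, which holds 0.34% of the array.

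Other epidermal genes were also highest on mutant 1 and lowest on control 2 more often than genes at large. Of a further list of 60 genes, 57 were measured and 30 tested, of which 0 passed in limma and 5 had an unadjusted p under 0.05. The mean was higher on the mutant arrays for 43 of 57, against 49.3% of all genes, and lower for 14. Mutant 1 was the highest array for 31, against 22.2% of all genes, and control 2 the lowest for 32, against 27.4%. Both mutant arrays lay above both controls for 20, against 11.2% of all genes. The median log2 difference was 0.29, under the 0.65 of the members. The tested genes named below had the largest differences, and all had a higher mean on the mutant arrays. Dmkn, dermokine, gave 71.0 in control 1, 113 in control 2, 842 in mutant 1 and 102 in mutant 2. Krt77, a type II keratin gene next to Krt1, gave 13.4, 56.9, 384 and 13.8, the order of arrays seen for Krt1 and Krt10. Their log2 differences were 1.59 ± 0.94 and 1.24 ± 1.28 (SE, limma adjusted p = 0.9999).

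Dsc1, the desmocollin of upper layers, gave 26.6 and 13.4 on the controls and 102 and 35.7 on the mutants. Evpl, envoplakin of the cornified envelope, gave 26.9 and 27.3 against 90.4 and 56.4, and its groups did not overlap. Rab25, an epithelial trafficking GTPase, gave 53.8, 5.23, 76.7 and 51.6 on control 1, control 2, mutant 1 and mutant 2, and S100a14, a calcium-binding protein of epithelia, gave 47.7, 10, 72.7 and 64.1. Both were marked, like Sfn, by the low value on control 2. Hrnr, the late envelope protein hornerin, named here after its values were seen, gave 235 on mutant 1 and 5.55 or less on the other arrays and was not tested because its mean was too low.

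Markers of other tissues also differed between the arrays, and some shared the high value on mutant 1. All 20 skeletal muscle genes were highest on mutant 1 and lowest on control 1, with summed signals of 5153 in control 1, 15232 in control 2, 29921 in mutant 1 and 14031 in mutant 2. The summed signal of 12 cartilage genes was 12858 on mutant 2 and 318 to 367 elsewhere. The 15 dermal genes summed highest on mutant 1 as well, at 66733, and 8 melanocyte genes ran from 389 to 578. No measured marker of these lists was listed at 0, but some values were very low, such as Mlana at 0.518 on control 2 and Col2a1 at 3.14 on mutant 1. A value above 0 does not show that a gene was detected. The part that these tissues, embryo sex or the dissection had in the epidermal values was not tested.

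**Figure D3:**
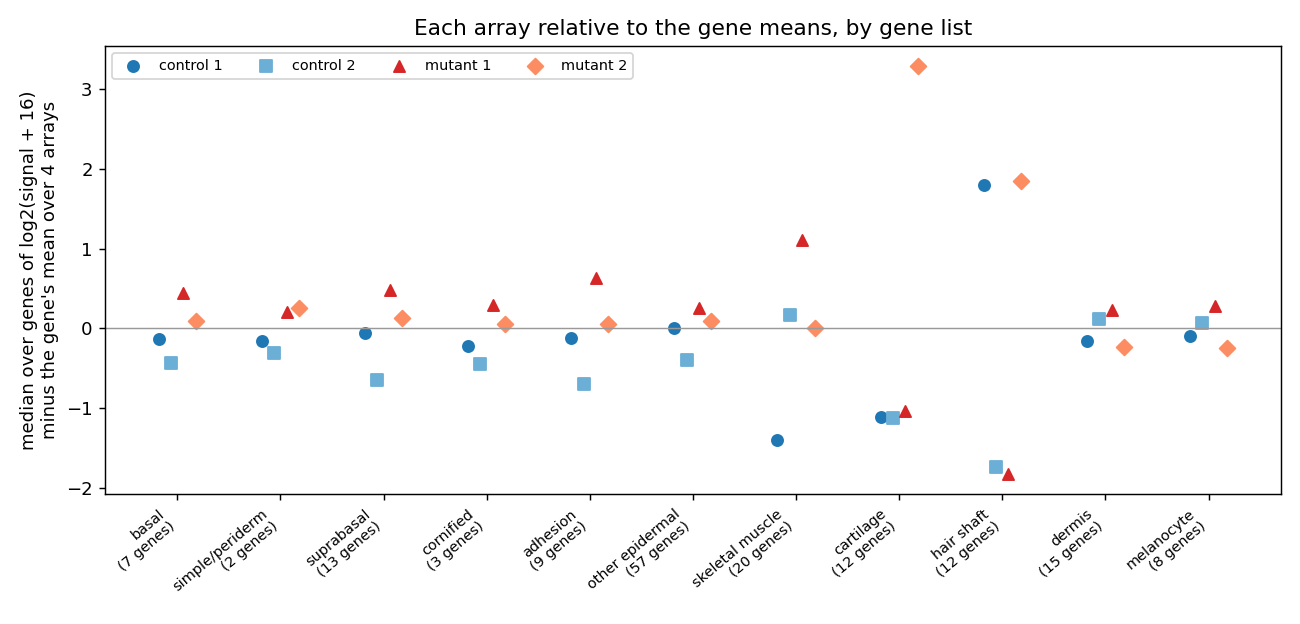
For each gene list, the median over its genes of log2(signal + 16) on an array minus the gene's own mean over the 4 arrays. All epidermal lists place control 2 lowest and all but the periderm keratins place mutant 1 highest, whereas hair shaft genes are high on control 1 and mutant 2 and cartilage genes on mutant 2.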

How the data were processed

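The deposited intensity values are signals per probe set on a linear scale, for which GCOS and MAS5 are named per the submitters' processing notes. No source used here says how background was handled or which probe sets were detected. Their mean after trimming 2% at each end was 150.0 on all 4 arrays, and no further normalization was applied. The authors' deposited fold is, per the file headers, a ratio of mutant to control after GCRMA. The 4 columns per sample beside it were not used. Of 45101 probe sets, 64 array controls were left out, and the platform annotation named 1 gene for 34945.

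Mutant was compared with control in limma 3.58.1 (R 4.3.3; lmFit, eBayes with an intensity trend) on log2(signal + 16). The test was two-sided and adjusted by Benjamini-Hochberg over the 22519 probe sets at or above the median mean log2 value of 5.52 and a threshold of 0.05. The fit was checked on simulated data with small, independent noise on every array. That check covers the calculation only, since these arrays have wider spreads and are correlated across the groups. The log2 differences of dim genes are understated by the pseudocount of 16. The labels give separate samples, and precision is limited by 2 arrays per group. Named genes are all members. Signals on every array were to be given where the labelled groups did not overlap or the highest array was at least 4 times the lowest, and most others are also given. From the further epidermal list the 6 largest differences among tested genes were named. Members, lists, pairs and motifs were chosen with earlier results of these data known. Alternatives were other pseudocounts, quantile normalization, no filter, no trend, the mean of a gene's probe sets, the methods' own test, replicate blocks and leaving out each array. Each fluidics module held 1 array and could not serve as a block. A split of the scan order into early and late arrays is the same as the crossed block. Python 3.11.15, pandas 2.3.3 and matplotlib 3.10.9 were used.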

Additional observations from a re-analysis of the deposited data

How the results depend on the processing

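With 2 arrays a group, single genes are resolved poorly, and no member passed in limma by label under any alternative but the crossed block given below. Over all probe sets the count past the threshold was 0 with the replicate block too, 0 to 1 without 1 array, and 4 by the methods' t-test, uncorrected with a 2-fold difference. Same-numbered arrays deviated in opposite directions (correlation -0.616); with the crossed block, chosen after the data were seen, 108 probe sets and 4 members passed, Lgals3, Calm4, Dsp and Sbsn. Without 1 array, 20 to 27 members had the remaining mutant arrays above the remaining controls, a count that can only stay or rise when an array is left out. The junction median was 0.40 to 0.99 without 1 array. A pseudocount of 1 moved the periderm keratin median to 0.76, the cornified one to 1.37 and that of mutant 1 minus control 2 to 1.60; a pseudocount of 64 moved the first to 0.22, the last to 0.54 and the median of all members to 0.32, by construction of the scale. Epcam became 0.14 over the mean of its probe sets. Signs turned without 1 array for Krt15 (-0.44 to 2.20), Itgb4 (-0.03 to 0.40), Itga6 (-0.29 to 0.04), Krt1 (-0.54 to 2.52), Krt10 (-0.58 to 2.34), Krtdap (-0.10 to 3.31), Fabp5 (-0.17 to 0.23), Grhl1 (0.00 to 0.91), Klf4 (-0.39 to 0.45), Ovol1 (-0.06 to 1.13), Lor (-0.38 to 2.97), Epcam (-0.41 to 0.15) and Cldn4 (-0.25 to 0.95). The cause was not tested beyond the arrays named.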
